A study of Homo sapiens with 8 samples.

Results

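The transcripts that AGO2 held in A431 cells with an excess of miR-634 were described by comparing the 2 miR-634 RIP arrays with the 2 miR-634 input arrays. A gene was a member when at least 1 of its probes was well above background on these 4 arrays, as the scanner software called it, and 12445 of the 22440 named genes with a probe on the array met this. A431 is a human cutaneous squamous cell carcinoma line. The cells had been transfected with miR-634 or with miR-NC, the control RNA, at 10 nM and lysed after 24 h. RNA from an AGO2 immunoprecipitation (RIP) and total RNA of the cells (input) were labeled and hybridized on one-color arrays, in an assay called RIP-chip. The methods name total RNA as the input, while the sample labels give normal rabbit IgG for the input arrays, and the arrays were taken as total RNA here. Nothing stated whether the 2 arrays of a group came from separate transfections, so the p-values measure only the spread between these arrays, which may be technical.

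AGO2 is the protein of the RNA-induced silencing complex that carries a mature miRNA and lets it pair with mRNAs, mostly through the seed, the bases near the 5′ end of the miRNA. A transfected miRNA loads onto AGO2 beside the miRNAs that the cell makes itself, so an AGO2 RIP holds mRNAs bound through both. Other ribonucleoproteins, such as ribonuclease P and the signal recognition particle, are built on RNAs that do not need AGO2.

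The mature miRNAs on which the target lists below rest are shown 5′ to 3′ because their seeds differ, with bases 2 to 8 in capitals (RefSeq, GRCh38.p14).
hsa-miR-634: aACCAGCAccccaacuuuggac
hsa-let-7a-5p: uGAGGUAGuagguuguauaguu
hsa-miR-17-5p: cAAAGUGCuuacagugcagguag
hsa-miR-21-5p: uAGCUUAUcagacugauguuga
The miR-634 sequence lies on chromosome 17 at 66787132 to 66787153 (plus strand), and its seed pairs with UGCUGGU in an mRNA. None of the other 3 miRNAs has this seed. They stand for families that many epithelial cells express. Their own levels were not measured by these arrays.

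On the miR-634 arrays, 45.8% of the spots of each input array and 40.0% of those of each RIP array were well above background, against 33.6% and 34.5% on the miR-NC RIP arrays. Levels are on a log2 scale with the 75th percentile of each array subtracted, so that 0 is the level of a bright probe and RIP/input compares a gene with the other genes of the same arrays. The median SD between the 2 arrays of a group was 0.05 in the input and 0.06 in the RIP (log2 levels, n = 2 arrays each). All input arrays lay in row 1 of the slide and all RIP arrays in row 2, so that RIP and slide row cannot be told apart. RNA held by IgG beads was not analysed here and was not subtracted. In bulk lysates, a change in some cells and a smaller change in all cells cannot be told apart. All 10 squamous keratinocyte markers were measured, among them KRT5 at a log2 level of 3.21 in the input, KRT6A at 3.89 and SFN at 5.52. The lowest of the 10 were KRT16 at -1.41 and TP63 at -3.99, beside a median input level of -1.82 over all genes. Of 7 markers of other cell types, CD3E, COL3A1, PECAM1 and MLANA were not well above background in both arrays of either group, PTPRC was in the input at -6.56 and COL1A1 in the RIP at -5.44, and PMEL, a melanosome protein, was measured in all 4 arrays at the low log2 levels of -5.59 in the input and -4.42 in the RIP.

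In miR-634 cells, 4535 genes (36.4% of those measured) were enriched in the AGO2 RIP and 5734 (46.1%) were depleted, by limma with Benjamini-Hochberg adjustment at 0.05. At least 2-fold enrichment that passed this test was found for 2142 genes (17.2%) and at least 2-fold depletion for 2523 (20.3%). All of these 2142 and 2523 genes had the same sign for both array numbers. The median log2 RIP/input over all genes was -0.14. The distribution had a longer upper tail: the gene at the 99th percentile was at 2.98, or 7.91-fold higher in the RIP, while the gene at the 1st percentile was at -2.09, or 4.25-fold higher in the input. With other scalings of the main filter, the median of all genes ranged from -0.13 to -0.032, apart from scaling on the spike-in probes. The spike-in probes stood 1.96 and 2.36 above the 75th percentile (log2) in the input arrays and 3.60 and 3.63 above it in the RIP arrays. Scaling on them moved every log2 RIP/input by -1.45 and the median to -1.59, with 675 genes then enriched and 10171 depleted, so a gene or list whose log2 RIP/input lies between 0 and 1.45 changes sign there. The position of a gene or list relative to the median of all genes does not move with that scaling, and lists are set against this median below.

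**Figure D1:**
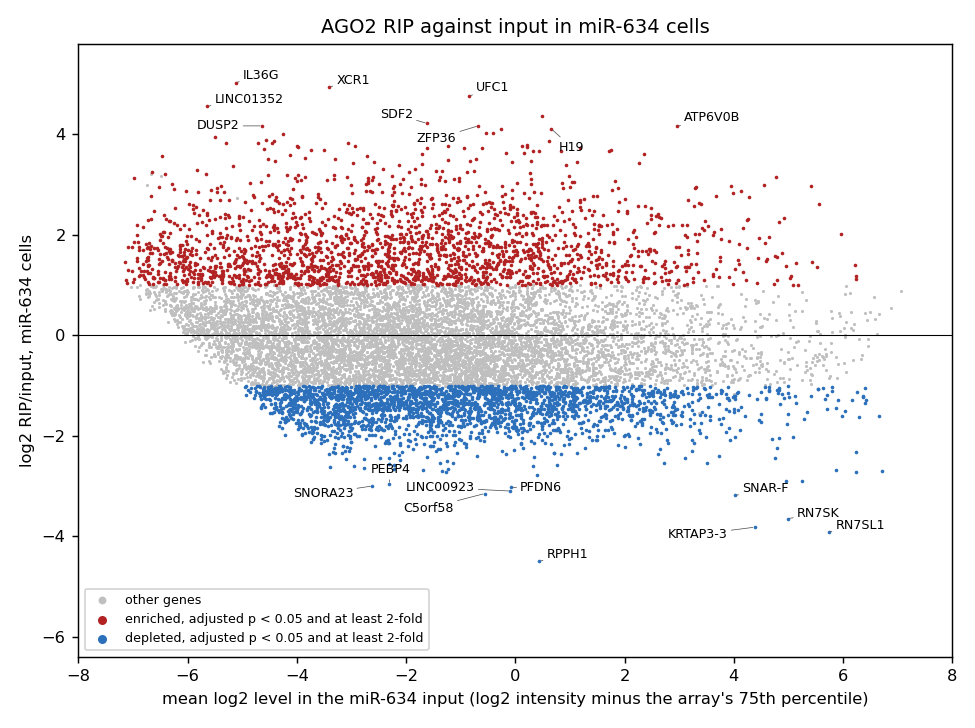
Each point is 1 of 12445 genes, with its mean log2 level in the 2 miR-634 input arrays on the horizontal axis and its log2 RIP/input on the vertical axis; red and blue mark genes that passed the test and were at least 2-fold enriched (2142) or depleted (2523) under the 75th percentile scaling. Named are 9 of the 10 highest and all 10 lowest genes, from IL36G at 5.03 to RPPH1 at -4.50, and the lower left is empty because a gene had to be well above background in the RIP arrays too.

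The shares of genes at least 2-fold depleted or enriched differed with the input level. Below the 25th percentile of the input level, 10.2% of the genes were at least 2-fold depleted and 22.5% at least 2-fold enriched. Above the 75th percentile of the input level, the shares were 24.8% and 15.7%. With the filter on the input arrays only, 3118 genes were at least 2-fold depleted and 2139 at least 2-fold enriched at any input level. The part of the RIP requirement in the shares by input level was not tested.

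Of the 10 genes with the highest RIP/input, 9 are described: IL36G, XCR1, UFC1, LINC01352, SDF2, DUSP2, ZFP36, ATP6V0B and H19, at 17.3- to 32.6-fold. For each of these 9 the lowest RIP array was far above the highest input array, with standard errors of 0.052 to 0.22 on the log2 scale and adjusted p of 3.84e-05 to 0.000121 by limma. IL36G (NM_019618), a cytokine of the interleukin-1 family made by keratinocytes, had log2 levels of -4.99 and -5.24 in the input and -0.11 and -0.072 in the RIP. It was thus a dim transcript in total RNA and a moderately bright one in the RIP. ZFP36, which encodes the protein tristetraprolin that binds AU-rich mRNAs, rose from -0.71 and -0.65 to 3.47 and 3.50. DUSP2, a phosphatase that acts on MAP kinases, was at -4.63 and -4.64 in the input and at -0.55 and -0.38 in the RIP. H19, a long noncoding RNA that also gives rise to a miRNA, had log2 levels of 0.62 and 0.69 in the input and 4.45 and 5.09 in the RIP, and a further H19 probe gave a log2 RIP/input of 4.35 beside 4.11 for the probe used. LINC01352, another long noncoding RNA, was at -5.77 and -5.52 in the input and -1.11 and -1.05 in the RIP.

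IL36G, ZFP36, DUSP2, H19 and LINC01352 were also at least 2-fold enriched in the AGO2 RIP of miR-NC cells. The difference of their log2 RIP/input between miR-634 and miR-NC cells was 1.44 for IL36G (adjusted p = 0.000102, limma), -0.029 for DUSP2 (adjusted p = 0.898), -0.56 for ZFP36 (adjusted p = 0.000573), -0.78 for H19 (adjusted p = 0.034) and -1.39 for LINC01352 (adjusted p = 0.000286). Among these 5 genes, IL36G alone was more enriched with miR-634 by this test, a direction that their choice on the miR-634 arrays favors. With spike-in scaling the difference was 0.52 for ZFP36, 0.30 for H19 and 1.06 for DUSP2, so their direction against miR-NC cells rests on the scaling. That of LINC01352 moved by 1.08 as well, which is most of its size.

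XCR1, UFC1, SDF2 and ATP6V0B behaved otherwise. UFC1, the conjugating enzyme that attaches the ubiquitin-like protein UFM1, had log2 levels of -0.86 and -0.84 in the input and 3.92 and 3.89 in the RIP of miR-634 cells, whereas its log2 RIP/input in miR-NC cells was -0.013. ATP6V0B, a membrane subunit of the proton pump that acidifies lysosomes, was at 2.90 and 3.01 in the input and at 7.11 and 7.12 in the RIP. That made it one of the brightest transcripts of the miR-634 RIP, while its log2 RIP/input in miR-NC cells was -1.02. SDF2, a protein of the endoplasmic reticulum, was at -1.65 and -1.59 in the input and 2.56 and 2.64 in the RIP, with 0.43 in miR-NC cells. XCR1, a chemokine receptor, was at -3.39 and -3.43 in the input and 1.51 and 1.55 in the RIP, with 0.48 in miR-NC cells. The log2 RIP/input differed between the kinds of cell by 4.77 for UFC1, 5.17 for ATP6V0B, 3.79 for SDF2 and 4.46 for XCR1 (adjusted p between 5.27e-07 and 7.12e-07, limma). These genes were chosen as the highest on these same miR-634 arrays, which favors a value above that of miR-NC cells.

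**Figure D2:**
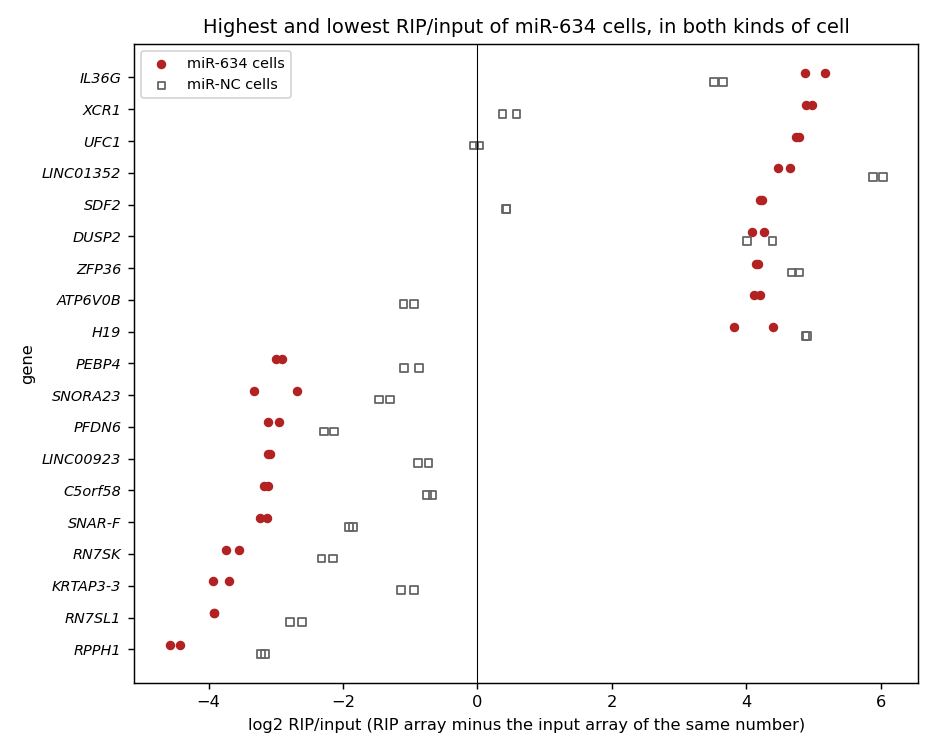
The horizontal axis gives the log2 RIP/input of 9 of the 10 highest and of the 10 lowest genes of miR-634 cells, each point being 1 RIP array minus the input array of the same number, a number that only names the arrays; filled circles are miR-634 cells and open squares miR-NC cells. DUSP2 lay at 4.17 in miR-634 cells and 4.2 in miR-NC cells, whereas ATP6V0B lay at 4.16 in miR-634 cells and at -1.02 in miR-NC cells.

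The lowest RIP/input belonged to RPPH1, RN7SL1, KRTAP3-3, RN7SK, SNAR-F, C5orf58, LINC00923, PFDN6, SNORA23 and PEBP4, from 22.6- to 7.76-fold higher in the input, with standard errors of 0.055 to 0.18 on the log2 scale and adjusted p of 3.84e-05 to 0.000156 by limma. Of the 10, 5 are structural noncoding RNAs. RPPH1, the RNA of ribonuclease P, which trims tRNA precursors, had log2 levels of 0.38 and 0.50 in the input and -4.04 and -4.08 in the RIP. RN7SL1, the RNA of the signal recognition particle, went from 5.76 and 5.71 to 1.84 and 1.79, and RN7SK, which restrains transcription elongation, from 4.90 and 5.08 to 1.35 and 1.34. SNAR-F, a small NF90-associated RNA, was at 4.01 and 4.03 in the input and at 0.87 and 0.80 in the RIP. SNORA23, a small nucleolar RNA, was at -2.69 and -2.55 in the input and at -5.38 and -5.87 in the RIP. The others included KRTAP3-3, a keratin-associated protein of hair, with log2 levels of 4.30 and 4.46 in the input and 0.60 and 0.54 in the RIP, and PFDN6, a subunit of the prefoldin chaperone, with -0.064 and -0.089 in the input and -3.02 and -3.19 in the RIP. C5orf58 fell by 3.15, LINC00923 by 3.10 and PEBP4 by 2.96 on the log2 scale. In miR-NC cells 7 of these 10 genes were at least 2-fold depleted too, and the difference of log2 RIP/input (miR-634 minus miR-NC) ran from -0.82 for PFDN6 to -2.78 for KRTAP3-3, with an adjusted p of 0.00153 or less for each (limma). The 10 genes were chosen as the lowest on these same miR-634 arrays, which favors a value below that of miR-NC cells. Spike-in scaling moved every such difference by 1.08, and that of PFDN6 became 0.26. This also removed most of the difference of RPPH1, RN7SL1, RN7SK, SNAR-F, SNORA23 and PEBP4, so its size rests on the scaling.

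RNA classes as RefSeq gives them, which were looked at after their values were known, showed the same kind of transcript at the low end. All 13 RNAs classed as small nuclear were depleted, against 46.1% of all genes, with a median log2 RIP/input of -2.69. They included RNU2-1 of the U2 spliceosomal particle (6.0-fold higher in the input), RNU11 (2.90-fold) and RNU12 (2.61-fold) of the minor spliceosome, and RNU4ATAC (5.0-fold). SNAR genes, 7 of the 13, are near-identical copies, so their probes cannot be taken as separate RNAs. RMRP, the RNA of ribonuclease MRP, had log2 levels of 0.28 and 0.51 in the input and -2.69 and -2.09 in the RIP, a 6.90-fold difference (adjusted p = 0.000362, limma). Both vault RNAs were depleted, VTRNA1-3 by 2.5 and VTRNA2-1 by 1.60 on the log2 scale. Of 95 small nucleolar RNAs, 67 (70.5%) were depleted and 14 enriched, with a median of -0.86. The exceptions were led by SNORD17, with log2 levels of -2.44 and -2.41 in the input and -0.014 and -0.10 in the RIP, and SNORA10, at -1.36 and -1.37 against 0.46 and 0.33. A probe within an intron-encoded small RNA can also report its host transcript, which was not tested. Of 3 ribosomal RNA genes, 2 were enriched and 1 did not pass the test. The 28S gene RNA28SN5 was at 6.82 and 6.92 in the input and 7.46 and 7.36 in the RIP (log2 0.54, adjusted p = 0.0017, limma), below its log2 RIP/input of 1.63 in miR-NC cells. Spike-in scaling moves a difference between the kinds of cell by 1.08, which is nearly all of this gap. The enriched pair, RNA28SN5 and RNA5-8SN5 (log2 0.93), changes sign with spike-in scaling.

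The study names XIAP, BIRC5, APIP, OPA1, TFAM, NFE2L2 and LAMP2 as known targets of miR-634 and proposes SLC1A5 as another. SLC1A5 comes from a list of 110 genes that the study chose partly by their RIP/input on these same arrays. Its direction here is thus not independent evidence. Of these 8 genes, 7 were measured, since the NFE2L2 probe was not well above background on these 4 arrays. Of the 7, 4 (57.1%) were enriched in the miR-634 RIP, 1 (14.3%) was depleted and 2 did not pass the test. Of all genes, 36.4% were enriched and 46.1% depleted. The median log2 RIP/input was 1.16, against -0.14 over all genes.

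APIP, an inhibitor of APAF1-dependent apoptosis, was dim in the input at -2.95 and -3.06 and rose to 0.037 and -0.069 in the RIP. This was a 7.92-fold enrichment (log2 2.98, standard error 0.073, adjusted p = 3.85e-05, limma), which placed it at the 99th percentile of all genes. SLC1A5, the glutamine transporter ASCT2, had log2 levels of -0.50 and -0.55 in the input and 1.47 and 1.62 in the RIP, a 4.21-fold enrichment (standard error 0.073, adjusted p = 5.18e-05, limma). TFAM, a mitochondrial DNA packaging and transcription factor, was at 1.09 in both input arrays and at 3.15 and 3.02 in the RIP, a 3.99-fold enrichment (standard error 0.068, adjusted p = 5.04e-05, limma), and a dimmer TFAM probe gave a log2 value of 2.65 in place of 2.0. BIRC5, the apoptosis inhibitor survivin, was already bright in the input at 2.66 and 2.69 and reached 3.85 and 3.81 in the RIP, a 2.23-fold enrichment (standard error 0.054, adjusted p = 8.36e-05, limma) that turned to a log2 value of -0.29 with spike-in scaling. In these 4 genes both RIP arrays lay above both input arrays.

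The remaining 3 measured targets were at or below the level of their input. OPA1, which fuses mitochondrial inner membranes, was at -2.22 and -2.16 in the input and at -2.30 and -1.97 in the RIP, so the groups overlapped (log2 RIP/input 0.052, adjusted p = 0.723, limma). LAMP2, a lysosomal membrane protein, was at 1.28 and 1.21 in the input and at 1.14 and 1.16 in the RIP (log2 RIP/input -0.10, adjusted p = 0.164, limma), and its 2 dimmer probes gave -0.0006 and -1.70. XIAP, which blocks caspases, was depleted, with log2 levels of -0.99 and -1.0 in the input and -1.58 and -1.57 in the RIP (1.5-fold higher in the input, adjusted p = 0.000503, limma), whereas a dimmer XIAP probe gave a log2 value of 0.55. In miR-NC cells these 3 genes were lower still, at -1.0 for OPA1, -1.14 for LAMP2 and -1.03 for XIAP. All 7 targets had a higher RIP/input with miR-634 than with miR-NC, where 28.2% of the 10929 genes measured on all 8 arrays did and 43.3% had a lower one (limma, adjusted p under 0.05). Spike-in scaling moved this difference by 1.08 for all genes, so that 67.1% were then higher and 1.75% lower, and counts of higher and lower genes against miR-NC cells below rest on the 75th percentile scaling. All 7 targets were higher under both. For SLC1A5, its choice on these same arrays favors this. In each of the 7 the RIP level was higher and the input level lower with miR-634, under the 75th percentile scaling. OPA1 changed by 0.31 in the RIP and -0.74 in the input, so the input made up more of its difference. APIP changed by 2.04 and -1.12, and XIAP by 0.28 and -0.17.

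**Figure D3:**
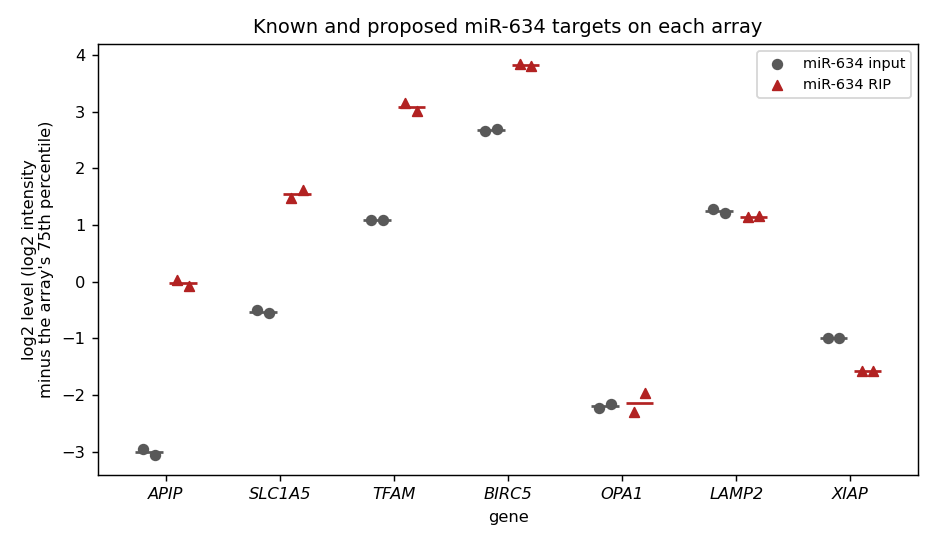
Log2 levels of the 7 measured miR-634 targets on each of the 2 input arrays (gray circles) and the 2 RIP arrays (red triangles), with the mean as a line, ordered by RIP/input. APIP, SLC1A5, TFAM and BIRC5 lay higher in the RIP, OPA1 overlapped, LAMP2 lay close together and XIAP lay lower; with spike-in scaling BIRC5 would lie lower as well.

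Textbook targets of miRNAs that epithelial cells make were in the miR-634 RIP too. Of 16 let-7 targets measured out of 20, 12 (75%) were enriched and 3 (18.8%) depleted, against 36.4% and 46.1% of all genes, with a median log2 RIP/input of 1.41 in miR-634 cells and 1.11 in miR-NC cells. NRAS, a RAS oncogene, had log2 levels of -2.42 and -2.43 in the input and 0.90 and 0.88 in the RIP, 9.96-fold higher, and its further probe gave a log2 value of 3.30 beside 3.32. CDC34, a ubiquitin-conjugating enzyme of the cell cycle, was 7.82-fold enriched. IGF2BP2, an RNA-binding protein, had log2 levels of -0.70 and -0.84 in the input and -1.78 and -1.88 in the RIP, 2.09-fold higher in the input. Against miR-NC cells, 8 of the 16 let-7 targets had a higher RIP/input and 8 a lower one, where 28.2% and 43.3% of all genes did. With spike-in scaling 10 were higher and 1 lower.

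Of 14 miR-17 family targets, 8 (57.1%) were enriched and 4 (28.6%) depleted, against 36.4% and 46.1% of all genes. The median was 0.60 in miR-634 cells and 0.78 in miR-NC cells. BCL2L11, the proapoptotic protein BIM, was 3.05-fold enriched, with log2 levels of -1.62 and -1.51 in the input and 0.055 and 0.034 in the RIP, although its dimmest probe gave a log2 value of 0.36. TXNIP, an inhibitor of thioredoxin, was 2.77-fold enriched, while RBL2, a pocket protein of the cell cycle, was 2.34-fold higher in the input. Against miR-NC cells, 11 of the 14 had a lower RIP/input and 2 a higher one, where 43.3% and 28.2% of all genes did, but with spike-in scaling none of the 14 was lower and 3 were higher, so the direction rests on the scaling. Of 12 miR-21 targets measured out of 15, 7 (58.3%) were enriched and 4 (33.3%) depleted (median 0.39), beside the same 36.4% and 46.1% of all genes. The highest was RECK, an inhibitor of metalloproteinases, at 4.65-fold, but its dimmer probe gave -1.05 on the log2 scale. CDC25A, a cell cycle phosphatase that is also in the let-7 list, was 3.80-fold enriched and the tumor suppressor PDCD4 2.21-fold higher in the input. Over the miR-21 targets measured in both kinds of cell, the median was 0.56 in miR-634 cells and 0.98 in miR-NC cells. The let-7, miR-17 and miR-21 medians lay above that of all genes under every scaling run.

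Of 13 transcripts of the miRNA machinery itself, 4 (30.8%) were enriched and 7 (53.8%) depleted (median -0.39), shares near the 36.4% and 46.1% of all genes. XPO5, which exports miRNA precursors from the nucleus, was the highest at 2.60-fold, with log2 levels of -1.57 and -1.52 in the input and -0.18 and -0.15 in the RIP, and its dimmer probes gave 0.83 and 0.89 on the log2 scale. TARBP2, a partner of Dicer, was 2.16-fold enriched. DROSHA, the nuclease that cuts primary transcripts, was 2.18-fold and PRKRA, another Dicer partner, 2.11-fold higher in the input. XPO5 and TARBP2 lie below 0 with spike-in scaling.

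Of 81 cytosolic ribosomal protein genes, 56 (69.1%) were depleted and 16 (19.8%) enriched, against 46.1% and 36.4% of all genes, with a median log2 RIP/input of -0.82. Over the 80 measured in both kinds of cell, the median was -0.83 with miR-634 and -0.062 with miR-NC, and the median difference of -0.65 became 0.43 with spike-in scaling. RPL17 went from 4.79 in both input arrays to 2.65 and 2.45 in the RIP, and its 2 further probes gave log2 values of -2.34 and -2.40 beside -2.23. RPL29 was 4.23-fold higher in the input, and all 4 of its probes lay between -2.28 and -2.08. A pair of ribosomal protein genes stood far above the rest. RPS16 had log2 levels of 4.77 and 4.76 in the input and 7.92 and 7.91 in the RIP, 8.90-fold higher, and RPL41 5.37 and 5.45 against 8.43 and 8.36, 7.90-fold higher. In miR-NC cells both were depleted, at -0.63 for RPS16 and -0.50 for RPL41. Ribosomal protein genes have many processed pseudogenes, and a probe may report these as well.

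Replication-dependent histone genes had the lowest median of the lists, the RNA classes above aside, at -1.07 over 61 genes, of which 54 (88.5%) were depleted and 4 (6.56%) enriched, against 46.1% and 36.4% of all genes. Their mRNAs end in a stem-loop in place of a poly(A) tail. H4C11 had log2 levels of 0.88 and 1.0 in the input and -0.99 and -1.13 in the RIP, 4.0-fold higher in the input, and H2BC26 was 3.52-fold higher in the input. H3C3, at 2.63 and 2.71 in the input and 5.0 in both RIP arrays, was 5.04-fold enriched, and H3C11 3.32-fold. Histone genes of a type are near copies of each other, and their probes may share transcripts. In miR-NC cells the median of the 59 histone genes measured in both was -0.26, and 52 of these 59 had a lower RIP/input with miR-634, where 43.3% of all genes did. With spike-in scaling 3 of the 59 were lower and 11 higher, and the median difference was 0.23 in place of -0.85, so the direction of the histone genes against miR-NC cells rests on the scaling.

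Of 77 mitochondrial ribosomal protein genes, which are encoded in the nucleus, 44 (57.1%) were depleted and 30 (39.0%) enriched (median -0.48), beside 46.1% and 36.4% of all genes. MRPL45 was 6.48-fold enriched, with a log2 value of 2.74 at its further probe beside 2.70, and MRPL20 5.27-fold, while MRPL50 and MRPL47 were 5.07-fold and 4.83-fold higher in the input. Of 80 oxidative phosphorylation subunits, 43 (53.8%) were depleted and 25 (31.2%) enriched (median -0.26), shares near those of all genes. ATP5F1B, the catalytic beta subunit of ATP synthase, had log2 levels of 2.27 and 2.26 in the input and 5.68 and 5.72 in the RIP, 10.8-fold higher, whereas it was at -0.58 in miR-NC cells. ATP5MC3, a subunit of the membrane ring of the same enzyme, was 7.94-fold enriched. NDUFB11 of complex I and UQCRQ of complex III were 5.46-fold and 4.07-fold higher in the input. No probe was named for the genes of the mitochondrial genome itself.

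**Figure D4:**
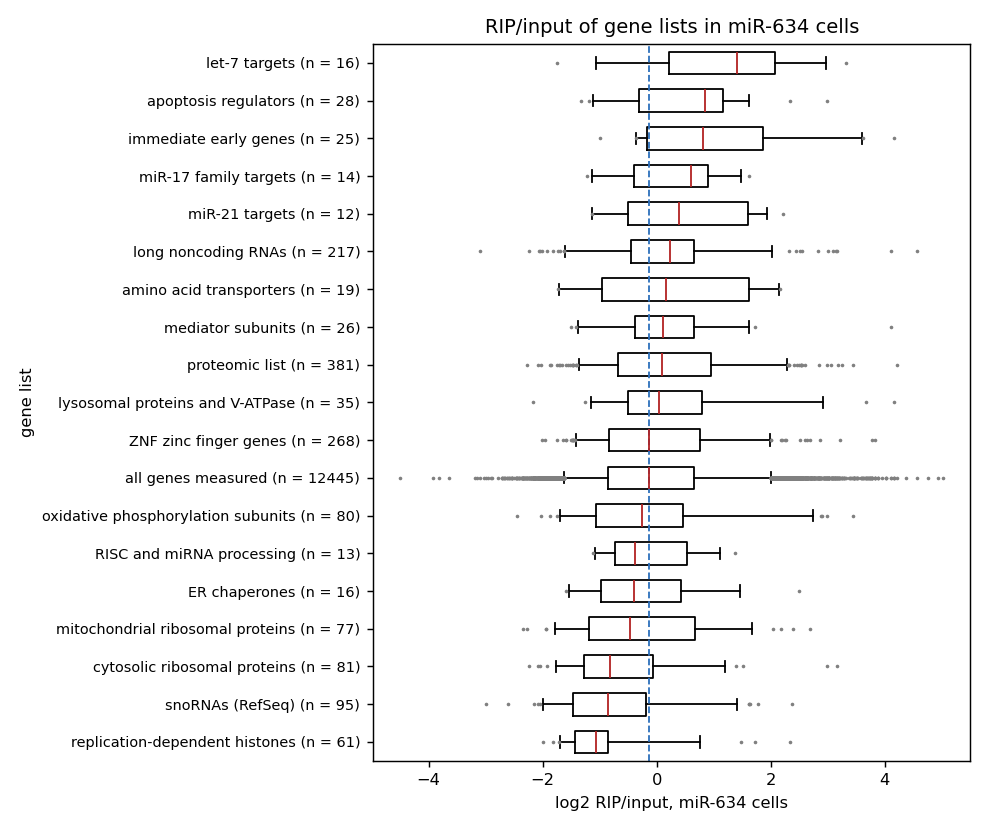
Each box gives the quartiles and the median (red) of the log2 RIP/input over the measured genes of a list in miR-634 cells, with whiskers from the 5th to the 95th percentile; the dashed line is the median of all 12445 genes, -0.14. Of the lists drawn, the let-7 targets lay highest with a median of 1.41 and the replication-dependent histones lowest with -1.07; spike-in scaling moves all boxes and the line by -1.45 and leaves their order.

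Of 25 immediate early genes, which stimuli induce quickly and for a short time, 16 (64.0%) were enriched and 6 (24.0%) depleted, against 36.4% and 46.1% of all genes, with a median of 0.81. ZFP36 was the highest, as given above. IER2, a nuclear protein induced by growth factors, had log2 levels of 2.39 and 2.33 in the input and 6.0 and 5.95 in the RIP, 12.3-fold higher. EGR3, a zinc finger factor, was 2.0-fold higher in the input (adjusted p = 0.00678, limma) and CCN1, a secreted matrix protein, 1.29-fold. Over the 24 measured in both kinds of cell, the median was 0.85 in miR-634 cells and 1.30 in miR-NC cells, and the median difference of -0.51 became 0.57 with spike-in scaling.

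Of 28 apoptosis regulators, 18 (64.3%) were enriched and 8 (28.6%) depleted, against 36.4% and 46.1% of all genes, with a median of 0.85. Over the 26 measured in both kinds of cell it was 0.89 with miR-634 and -0.051 with miR-NC, and 14 had a higher and 9 a lower RIP/input with miR-634, where 28.2% and 43.3% of all genes did. With spike-in scaling 18 were higher and none lower. The highest were APIP, given above, and BOK, a BAX-like protein, with log2 levels of -2.64 and -2.62 in the input and -0.31 and -0.25 in the RIP, 5.07-fold higher. BCL2A1, an antiapoptotic protein, was 2.51-fold and BAD, a proapoptotic one, 2.27-fold higher in the input. Among other genes, the list shares APIP, BIRC5 and XIAP with the miR-634 targets, BCL2L11 with those of miR-17 and MCL1 with the immediate early genes.

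Of 19 amino acid transporters measured out of 26, 9 (47.4%) were enriched, each at least 2-fold, and 7 (36.8%) depleted (median 0.16), beside 36.4% and 46.1% of all genes. SLC7A8, a carrier of large neutral amino acids, had log2 levels of -2.79 and -2.82 in the input and -0.57 and -0.71 in the RIP, 4.48-fold higher, against a log2 RIP/input of -0.73 in miR-NC cells. SLC36A1, which exports amino acids from lysosomes, was 4.45-fold enriched, while SLC7A11, the cystine and glutamate exchanger, was 3.33-fold and SLC36A4 3.26-fold higher in the input. SLC7A11 was at -1.98 in miR-NC cells, and its difference between the kinds of cell did not pass the test (0.24, adjusted p = 0.0634, limma).

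Of 35 lysosomal and V-ATPase genes, 13 (37.1%) were enriched and 15 (42.9%) depleted (median 0.045), near the 36.4% and 46.1% of all genes. The 2 highest were both subunits of the pump, ATP6V0B, given above, and ATP6V1F, with log2 levels of 1.69 and 1.74 in the input and 5.36 and 5.42 in the RIP, 12.8-fold higher. CTSZ and TPP1, both lysosomal proteases, were 4.52-fold and 2.39-fold higher in the input. Of 26 mediator subunits, 13 were enriched and 8 depleted (median 0.12), beside 36.4% and 46.1% of all genes. MED30 was at -0.23 and -0.31 in the input and at 3.89 and 3.78 in the RIP, 17.2-fold higher, while its log2 RIP/input in miR-NC cells was -1.46. MED22 was 3.31-fold enriched, and MED13 and MED4 were 2.85-fold and 2.66-fold higher in the input.

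Of 16 ER chaperones, 9 (56.2%) were depleted and 5 (31.2%) enriched (median -0.39), beside 46.1% and 36.4% of all genes. ERP29 was 5.61-fold enriched, with log2 levels of 1.35 in both input arrays and 3.76 and 3.92 in the RIP, and DNAJB9 2.74-fold, whereas PDIA4 and HSP90B1 were 3.03-fold and 2.89-fold higher in the input. Of all 717 genes that RefSeq classes as long noncoding RNAs, 287 (40.0%) were enriched and 252 (35.1%) depleted (median 0.10). Among 217 chosen by name, 96 (44.2%) were enriched and 63 (29.0%) depleted (median 0.24), over a range from -3.10 for LINC00923 to 4.56 for LINC01352. LINC00115 was 4.71-fold higher in the input. The 268 ZNF zinc finger genes had the median of all genes, -0.14, with 93 (34.7%) enriched and 115 (42.9%) depleted, shares near those of all genes. ZNF358 and ZNF579 were 14.2-fold and 13.7-fold enriched, and ZNF277 and ZNF789 4.03-fold and 3.87-fold higher in the input. Of the 10 squamous markers, 4 were enriched and 2 depleted, beside 36.4% and 46.1% of all genes. Keratin KRT16 was 2.01-fold and the adhesion protein CDH1 1.73-fold enriched, while DSP, a desmosome protein, was 2.22-fold and EGFR, the growth factor receptor, 1.97-fold higher in the input. A dimmer EGFR probe gave a log2 value of 0.13. PMEL, the melanosome protein, was 2.25-fold enriched at its low level. KRT16, CDH1 and PMEL lie below 0 with spike-in scaling.

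The study lists 428 proteins that were lower with miR-634 in a proteomic experiment. Of these, 381 genes were measured here, and 177 (46.5%) were enriched and 150 (39.4%) depleted, against 36.4% and 46.1% of all genes. The median was 0.089. Its highest members were SDF2 and ATP5F1B and its lowest MRPL47 and RPL29, all given above. Over the 366 measured in both kinds of cell, the median was 0.10 with miR-634 and -0.25 with miR-NC. The study's shorter list of 110 genes holds those found both in that proteomic experiment and by RIP enrichment on these same arrays. Its direction is thus not independent evidence: 99 (90.0%) were enriched and 2 (1.82%) depleted, with a median of 1.47. The depleted members were the kinase gene YES1, at 1.25-fold higher in the input (adjusted p = 0.04, limma), and GNG12, a G protein subunit, at 1.19-fold (adjusted p = 0.0265, limma). The study took that list by comparison with miR-NC cells, in which YES1 was at -1.19 and GNG12 at -1.23.

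All members of 3 functional terms of that list were enriched, as its choice favors. For the 7 genes of mitochondrion organization the range ran from GRPEL2 at 1.63-fold through BCL2L1 (1.95), MRPL12 (2.34), DNAJA3 (3.13), SLC25A4 (3.25) and GRPEL1 (3.53) to TFAM. For the 7 genes of protein folding, which share GRPEL1, GRPEL2 and DNAJA3, it ran from the chaperonin HSPD1 at 1.59-fold through CALR (2.58) and FKBP9 (3.23) to ERP29. The 5 amino acid transport genes ran from NFKBIE at 1.77-fold through SLC25A22 (2.13), SLC38A5 (2.45) and SLC25A4 to SLC1A5. Of these, GRPEL2, BCL2L1, MRPL12, HSPD1, CALR, NFKBIE, SLC25A22 and SLC38A5 lie below 0 with spike-in scaling.

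Genes at the extremes of the miR-634 RIP were set beside the miR-NC RIP, whose arrays are separate. In miR-NC cells, 11.5% of the 10929 genes measured on all 8 arrays were at least 2-fold enriched and 10.5% at least 2-fold depleted, and 33.3% were enriched and 44.9% depleted at any fold. Of the 1875 at least 2-fold enriched genes that were measured on all 8 arrays, 609 were at least 2-fold enriched in miR-NC cells as well, which is 32.5% of these genes and 48.6% of the 1252 such genes of miR-NC cells. Over the 1875 genes, the median log2 RIP/input was 1.64 with miR-634 and 0.50 with miR-NC. They were chosen by their values on the miR-634 arrays, which favors a higher median there. Spike-in scaling moves the difference between the kinds of cell by 1.08. Of the 1875, 392 (20.9%) were depleted in miR-NC cells, where 44.9% of all genes were, among them ATP6V0B, MED30, RPS16, RPL41 and ATP5F1B. Of 2265 at least 2-fold depleted genes, 786 were so in miR-NC cells too (34.7% of these and 68.8% of 1143), and 99 (4.37%) were enriched there, where 33.3% of all genes were. The median of the 2265 depleted genes was -1.35 with miR-634 and -0.81 with miR-NC, an order that their choice on the miR-634 arrays favors. The spread of log2 RIP/input over the 10929 shared genes was wider with miR-634, with an SD over genes of 1.12 against 0.87. The miR-NC RIP arrays had fewer spots well above background, as given above, and the part of this in the narrower spread was not tested.

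Among the 12445 genes, 869 (6.98%) had no probe well above background on either miR-NC RIP array. They were dim transcripts, with a median log2 level of -5.40 in the miR-634 input, against -1.82 over all genes, and 839 of them were well above background on both miR-NC input arrays. Of the 869, 368 (42.3%) were enriched in the miR-634 RIP and 252 (29.0%) depleted, against 36.4% and 46.1% of all genes, with a median log2 RIP/input of 0.23. At least 2-fold enrichment was found for 178 of the 869 and at least 2-fold depletion for 118, beside 17.2% and 20.3% of all genes. Being well above background in the miR-634 RIP was required of them, which favors the enriched side. The lowest level well above background was -6.32 and -6.33 on the miR-634 RIP arrays, below that of the miR-NC RIP arrays given next. A gene not well above background has only an upper bound in the miR-NC RIP. The bound was the mean over both miR-NC RIP arrays of the lowest level that any probe well above background had there (-5.12 and -5.34), or of the probe's own level where that was higher. Against it, 353 genes were higher in the miR-634 RIP, 89 of them at least 2-fold and 13 at least 4-fold.

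The 10 highest bounds belonged to ZNF419, TMEM270, ADPRM, TMEM200B, TEX19, PGBD3, RHPN1-AS1, CAMKK1, CENPI and VAMP5. ZNF419, a zinc finger protein, had log2 levels of -5.57 and -5.10 in the miR-634 input and -2.54 and -2.41 in the miR-634 RIP, 7.26-fold higher than the input (adjusted p = 0.000157, limma) and at least 6.68-fold higher than in the miR-NC RIP, where the measured values were -5.34 and -5.31. TMEM270, a membrane protein gene, was at -5.49 and -5.43 in the input and -2.58 and -2.46 in the RIP, at least 6.52-fold higher than in the miR-NC RIP. ADPRM, a phosphatase of ADP-ribose, was at -4.40 and -4.34 in the input and -2.64 and -2.59 in the RIP, at least 6.13-fold higher. All 3 were well above background on both miR-NC input arrays, and their log2 input level changed from miR-NC to miR-634 cells by -0.10 for ZNF419, -0.64 for TMEM270 and -0.048 for ADPRM. TMEM200B was at least 6.03-fold, TEX19 at least 6.02-fold and PGBD3, a domesticated transposase, at least 5.77-fold higher than in the miR-NC RIP. RHPN1-AS1 and CAMKK1, a kinase that activates other calmodulin-dependent kinases, followed at 5.54-fold and 5.41-fold or more. CENPI, a kinetochore protein, was at least 5.05-fold and VAMP5, a vesicle fusion protein, at least 4.95-fold higher. All 10 had both miR-634 RIP arrays above both miR-634 input arrays, by 3.26-fold for VAMP5 up to 9.78-fold for RHPN1-AS1. The 10 were chosen by a high level on these same miR-634 RIP arrays, which favors a high RIP/input and a low p-value.

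**Figure D5:**
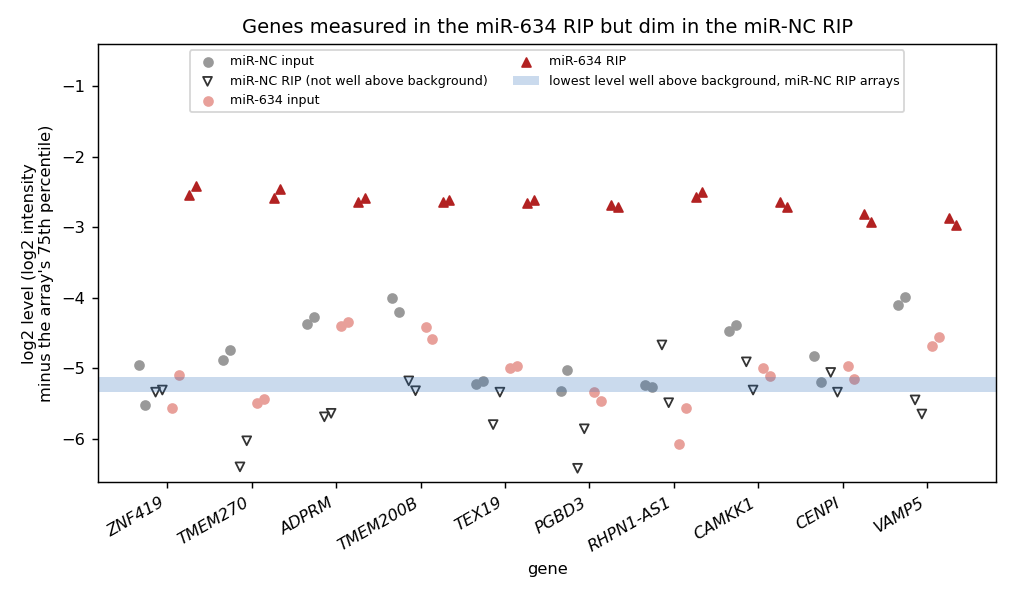
Log2 levels on all 8 arrays of the 10 genes with the highest bounds; open triangles are miR-NC RIP values not well above background, and the blue band spans the lowest levels well above background on the miR-NC RIP arrays, -5.34 and -5.12. The miR-634 RIP values, between -2.97 and -2.41, lie above all other values of each gene under the 75th percentile scaling, which the choice of these genes favors.

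A further 1011 genes were well above background on both miR-634 input arrays and had no probe so on either RIP array, so they were not among the 12445. With the same kind of bound, 148 of them were at least 2-fold higher in the input. REM2, a small GTPase, led with log2 levels of -3.49 and -3.46 in the input and measured values of -6.29 and -6.32 in the RIP, at least 7.14-fold higher in the input. SNORA12, a small nucleolar RNA, followed at 6.26-fold or more, the long noncoding RNA LINC01003 at 5.72-fold, FKBP7, a prolyl isomerase of the endoplasmic reticulum, at 5.29-fold and STEAP2, a metalloreductase, at 4.74-fold. Of the 1011 genes, 938 had no probe well above background on either miR-NC RIP array as well. The lowest level well above background was higher on those arrays (-5.12 and -5.34) than on the miR-634 RIP arrays (-6.32 and -6.33), which favors this overlap.

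The converse group was small, with 54 genes well above background on both miR-634 RIP arrays and with no probe so on either input array. SLC26A1 and CXCL8, named after their values were seen, are examples. SLC26A1, a sulfate transporter, had RIP levels of -4.40 and -4.17 (log2) and measured input values of -7.40 and -7.21, at least 8.0-fold higher in the RIP. CXCL8, the chemokine interleukin-8, had RIP levels of -4.76 and -4.79 and input values of -7.35 and -7.34, at least 5.84-fold higher. Of the 54 genes, 44 were not well above background on either miR-NC RIP array, where the lowest such level was higher, as given above. On the miR-634 input arrays the lowest level well above background was -7.36 and -7.29, below the -6.32 and -6.33 of the miR-634 RIP arrays. This favors a larger group seen in the input alone, the 1011 genes, over these 54.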

How the data were processed

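The authors deposited, for each of 8 arrays, the intensity of every spot from Agilent Feature Extraction (12.0.1.1 per the file headers, 9.1 per the labels), background-subtracted within the array, and their own GeneSpring log2 values, which proved to be log2 intensities minus the 75th percentile of the array, centered per probe, and were used as an alternative. Control and outlier spots were left out, and no spot was saturated. Spots of a probe were averaged. Of 58201 probes, 20292 were well above background on the 4 miR-634 arrays. From each array its 75th percentile was subtracted, taken over the 16805 probes well above background on all 8 arrays. Of 31770 probes with a RefSeq accession, 31038 were named through RefSeq (GRCh38.p14). Probe coordinates, which the design gives on hg19, are not printed. The brightest passing probe stood for a gene.

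For RIP minus input, lmFit and eBayes of limma 3.58.1 (R 4.3.3) were run on the 4 miR-634 arrays, and for the difference between the kinds of cell on all 8 arrays, over 10929 genes. P-values were adjusted by Benjamini-Hochberg with a threshold of 0.05. The members and lists were chosen with earlier results of these data known. Named genes are the targets, the 10 highest and 10 lowest genes with the same sign in the arrays of each number, the 10 and 5 highest bounds of the dim groups, and the highest and lowest of each list (2 each, or 1 in lists under 10). Genes of the RNA classes were named after their values were seen, as were SLC26A1 and CXCL8. Some genes that this rule names are not reported here. The text gives no list a test. For dim probes, folds are bounds from normalized log2 means. Alternatives were 5 scalings, normexp (offset 50, on the median signal) with quantile normalization, the authors' values, other filters, the mean of the probes, all 8 arrays, a replicate block, an intensity trend, leaving out each array, and the methods' t-test. All arrays shared 1 slide and 1 scan. The number of arrays limits the precision. The scripts were tested on simulated data. Tables and plots used Python 3.11.15, pandas 2.3.3 and matplotlib 3.10.9.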

Additional observations from a re-analysis of the deposited data

Results flagged for a closer look

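For 25 of the genes named as targets or as extremes, the log2 RIP/input differed between miR-634 and miR-NC cells by limma at an adjusted p under 0.05, and the difference (miR-634 minus miR-NC) is given here for each. All 7 measured targets were higher with miR-634: APIP by 3.16, SLC1A5 by 2.81, BIRC5 by 1.74, TFAM by 1.58, OPA1 by 1.05, LAMP2 by 1.04 and XIAP by 0.45. A lower input level with miR-634 was part of each of these differences. SLC1A5 was chosen by the study partly on these same arrays, which favors its difference. Among the genes with the highest RIP/input, ATP6V0B was higher by 5.17, UFC1 by 4.77, XCR1 by 4.46, SDF2 by 3.79 and IL36G by 1.44. The difference was -1.39 for LINC01352, -0.78 for H19 and -0.56 for ZFP36.

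All 10 genes with the lowest RIP/input were lower with miR-634 under the 75th percentile scaling. They, and the highest genes above, were chosen by their values on these same miR-634 arrays, which favors a difference in that direction. The difference was -2.78 for KRTAP3-3, -2.44 for C5orf58, -2.30 for LINC00923, -1.98 for PEBP4 and -1.62 for SNORA23. It was -1.41 for RN7SK, -1.31 for RPPH1, -1.31 for SNAR-F, -1.22 for RN7SL1 and -0.82 for PFDN6. Spike-in scaling moved every difference by 1.08, which turned that of PFDN6 to 0.26. It also removed most of the difference of RN7SK, RPPH1, SNAR-F, RN7SL1, SNORA23, PEBP4 and LINC01352, so their size rests on the scaling.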

How the results depend on the processing

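Most counts held under the alternatives, with exceptions. Scaling on spike-in probes gave 675 genes enriched and 10171 depleted, and 314 and 8706 at 2-fold. Without a filter on dim probes 9377 were enriched and 3533 at least 2-fold, and with normexp and quantile normalization 1423 were at least 2-fold depleted. When each array was left out in turn, the counts ranged from 4016 to 4565 enriched, 5139 to 5794 depleted, 2133 to 2207 at least 2-fold enriched and 2455 to 2551 at least 2-fold depleted, the lone array being assumed to vary like the other group. The methods' t-test on the same values called 4022 enriched and 5158 depleted, and 3761 and 4818 after Benjamini-Hochberg. The arrays share only a number (correlation of deviations 0.0648): with a replicate block 4558 genes were enriched and 5735 depleted, 2146 and 2526 at 2-fold. Counting a gene as dim by its passing probe alone gave 913 genes in place of 869.

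Among named genes, log2 RIP/input changed sign with spike-in scaling for BIRC5 (-0.29), OPA1 (-1.40), XPO5 (-0.071), TARBP2 (-0.34), KRT16 (-0.44), CDH1 (-0.66), PMEL (-0.28), GRPEL2 (-0.75), BCL2L1 (-0.49), MRPL12 (-0.22), HSPD1 (-0.78), CALR (-0.081), NFKBIE (-0.63), SLC25A22 (-0.36) and SLC38A5 (-0.16). OPA1 ranged from -0.12 to 0.22 when an array was left out, and LAMP2 was 0.0077 with the percentile over all probes and 0.0069 with the authors' values. The difference from miR-NC cells changed sign for DUSP2 with median scaling (0.017), the percentile over all probes (0.09), spike-in scaling (1.06) and without an array (from -0.24 to 0.18). With spike-in scaling it changed for ZFP36 (0.52), H19 (0.30) and PFDN6 (0.26). The cause of these changes was not tested. Dim signal limits RIP values near background to bounds.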
